A study of Mus musculus with 24 samples.

Results

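The integrated stress response and the unfolded protein response were followed through 36 genes in mouse embryonic stem cells. The genes were taken by symbol from a fixed list, chosen with earlier results of these data known. Matching to the deposited tables by Ensembl identifier gives 36 of the 55487 genes counted. They comprise 6 transcription factors, 7 feedback and effector genes, 8 enzymes of amino acid and one-carbon synthesis, 5 amino acid transporter subunits and 10 genes of the endoplasmic reticulum (ER). The study sequenced RNA from the KH2 line, in which each culture carries a DUX transgene behind a doxycycline (DOX) responsive promoter. DUX is the transcription factor that starts the gene programme of the 2-cell embryo, and the title of the series asks how cells leave that state.

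There are 24 libraries in 12 groups of 2. WT and DUXBL-KO cells form a plain set of 8 libraries. A second set of 16 libraries, marked pLV2, holds WT line 1, WT line 2, TRIM24-KO and TRIM33-KO. Each of these 6 lines was sequenced without DOX and after 16 h of DOX, and all 12 groups carry the transgene. What pLV2 stands for, and which WT pLV2 line is the parent or partner of which knockout, is not stated, and neither is the number of clones behind a line. The knockouts were therefore set against the mean of both WT pLV2 lines. No label ties replicates to separate cultures, so the p-values measure only the spread between these libraries.

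Both pathways slow protein synthesis and switch on repair genes. In the integrated stress response, kinases that sense amino acid shortage, ER stress, viral RNA or heme shortage phosphorylate the initiation factor eIF2. This lowers translation in general while raising that of ATF4, which activates genes for amino acid uptake and synthesis together with its own regulators. The unfolded protein response is run by the ER sensors PERK, IRE1 and ATF6. PERK also feeds into ATF4, IRE1 activates XBP1 by splicing its mRNA, and ATF6 and XBP1 raise chaperones of the ER. Counts per gene measure neither eIF2 phosphorylation, nor ATF4 protein, nor the splicing of Xbp1.

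Gene counts ranged from 11784696 to 19136869 per library, of which the 36 members took between 0.177% and 0.52%. All 36 passed the filter on low counts in both sets, where 18060 and 18079 genes were tested. Levels are given in CPM, counts scaled to library size within each set, and are not comparable between the sets. The common coefficient of variation between libraries of a group was 17.8% among the plain libraries and 8.55% among the pLV2 libraries. In the pLV2 set, Trim33 lay at 16.9 to 21.4 CPM in TRIM33-KO and at 85.4 to 140 CPM in the WT lines. Trim24 lay at 121 to 137 CPM in the libraries labelled TRIM24-KO, inside the WT range of 94.7 to 199 CPM, and Duxbl1 overlapped between the libraries labelled DUXBL-KO (0.321 to 11.1 CPM) and WT (0.365 to 8.35 CPM). Gene-wide counts do not check a deletion of part of a gene, so those 2 lines are named here by their labels. The treatment tag contradicts the title in 8 pLV2 libraries. Groups were taken from the titles, which the level of Dux matched. A single transcript, CT010467.1, took 30.4% of gene counts in TRIM24-KO with DOX replicate 2 and 12.9% in TRIM33-KO with DOX replicate 2.

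All 10 pluripotency markers were detected in every group, at a summed 4222 to 6089 CPM. The 8 markers of the 2-cell-like state summed to at most 4.67 CPM without DOX. With DOX they summed to 928 to 1148 CPM in WT pLV2 line 1, 1024 to 1546 in TRIM24-KO, 2745 to 3788 in WT pLV2 line 2 and 4840 to 5371 in TRIM33-KO. In the plain set they summed to 537 to 1339 CPM in WT and 1044 to 1584 in DUXBL-KO. The 10 fibroblast markers, listed because the labels mention feeder cells, summed to 15.6 to 45.3 CPM, and Lum and Postn were at or near 0. In bulk RNA, fewer cells of a type and less RNA per cell cannot be told apart.

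The reference sequence upstream of the members is shown first, since it holds the elements through which ATF4 and the ER stress factors are known to act. RefSeq promoter windows (GRCm38.p6, 250 bases before to 50 after the start) were found for 32 of the 36 members. Each window was searched on both strands for the CARE, the C/EBP-ATF response element bound by ATF4 dimers (TGATGNAAN), which lay in 9 of 32 members (28.1%) and in 4.5% of 27025 genes. The 9 are Asns, Atf3, Chac1, Herpud1, Nupr1, Pycr1, Slc7a11, Trib3 and Vldlr. The ER stress element bound by ATF6 and NF-Y (CCAAT and CCACG with 9 bases of any kind between them) lay in 3 members, Creld2, Hsp90b1 and Hspa5 (9.38%), and in 0.137% of genes. These stretches are printed in the direction of the gene, with the match in capitals. A match read on the opposite strand appears as its reverse complement.
Asns, CARE, chr6:7693213-7693242, minus strand: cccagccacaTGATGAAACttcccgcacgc
Slc7a11, CARE, chr3:50443660-50443689, minus strand: ctcatgtggcTGATGCAAAcctggagaatt
Slc7a11, CARE, chr3:50443642-50443671, minus strand: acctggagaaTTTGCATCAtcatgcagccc
Chac1, CARE, chr2:119351038-119351067, plus strand: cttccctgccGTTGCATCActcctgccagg
Nupr1, CARE, chr7:126625562-126625591, minus strand: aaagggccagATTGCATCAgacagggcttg
Vldlr, CARE, chr19:27216809-27216838, plus strand: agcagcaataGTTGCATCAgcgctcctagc
Hspa5, ER stress element, chr2:34772020-34772049, plus strand: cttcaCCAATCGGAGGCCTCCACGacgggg
Ppp1r15a, cAMP response element, chr7:45526269-45526298, minus strand: gagaccccgcctctccggTGACGTCAgcac

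Ppp1r15a was the only member of the 32 with the cAMP response element (TGACGTCA), which 2.03% of genes hold. No member window held the XBP1 element TGACGTGG (0.714% of genes) or the DUX site (TGATT and AATCA with 1 base between them, found in 0.0407% of genes). The window of Dnajb9 held none of these 5 motifs. Such matches are letters in the reference and say nothing about binding in these cells.

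Before DOX, the members spanned a wide range of levels. Per kilobase of exon in WT pLV2 line 1, the chaperone Hsp90b1 stood highest at 146 ± 1.61 CPM per kb (SD, n = 2). It was followed by Hspa5, the main chaperone BiP of the ER, at 74.8 ± 1.62, the serine enzyme Shmt2 at 74.5 ± 4.36 and Atf4 at 72.0 ± 1.75. The neighbours Hspa5, Shmt2 and Atf4 did not differ beyond their spread. The lowest were Atf3 at 0.639 ± 0.269, the lipoprotein receptor Vldlr at 0.39 ± 0.118 and the cystine transporter Slc7a11 at 0.0433 ± 0.0155 CPM per kb. Ddit3, which encodes the pro-apoptotic factor CHOP, was also low at 3.81 ± 0.679.

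With DOX, 7 members fell in all 4 pLV2 lines, namely Chac1, Slc3a2, Slc7a1, Slc7a3, Stc2, Trib3 and Xbp1, and 2 rose in all 4, Dnajb9 and Ppp1r15a. No member was called in opposite directions in different lines, where 0.149% of all genes were. The 7 are 19.4% of the members, where 2.09% of all genes tested were lower in all 4 lines. The 2 that rose are 5.56%, near the 7.31% of all genes that were higher in all 4. Not called in any of the 4 lines were 9 members (25% of the members, 56.5% of all genes), namely Atf3, Cebpb, Creld2, Hsp90b1, Hyou1, Psph, Sdf2l1, Slc7a11 and Slc7a5.

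By line, with edgeR's quasi-likelihood test and an adjusted p threshold of 0.05, 10 of 36 members were called in WT pLV2 line 1 (2 up, 8 down), where 16.3% of all genes were called. In WT pLV2 line 2 the count was 15 (2 up, 13 down), against 26.8% of all genes. In TRIM24-KO it was 22 (6 up, 16 down), against 16.4%, and in TRIM33-KO 17 (4 up, 13 down), against 36.5%. Of all genes, 10%, 12.7%, 11.5% and 16.5% were higher and 6.24%, 14%, 4.94% and 20.1% lower, in that order. Leaving out 1 library lowered these shares too: the lower calls over all genes went from 1129 to between 269 and 548 in line 1, from 2534 to between 1235 and 1942 in line 2, from 893 to between 368 and 840 in TRIM24-KO and from 3627 to between 2009 and 2479 in TRIM33-KO. The lowest of these were without control replicate 2 in line 1, DOX replicate 1 in line 2, and DOX replicate 2 in both knockouts. Marker lists changed with DOX as well. Of the 10 pluripotency markers, 2 were lower and 2 higher in line 1, and in line 2, TRIM24-KO and TRIM33-KO 5, 5 and 5 were lower and 1, 0 and 1 higher, with medians of -0.13, -0.26, -0.21 and -0.31 over the 4 lines. Of the 10 fibroblast markers 6 were tested, of which 2, 2, 2 and 3 were higher and 0, 1, 0 and 1 lower, with medians of 0.95, 0.37, 0.39 and 0.54. Their sums with DOX were 27.0 to 29.4 CPM in line 1, 43.3 to 45.3 in line 2, 30.7 to 34.7 in TRIM24-KO and 41.4 to 43.0 in TRIM33-KO, each above the sum without DOX, and Postn and Lum were at or near 0. The part of these markers in the result was not tested. The median log2 change of the 36 members was -0.11, -0.18, -0.21 and -0.13, beside -0.03, -0.07, -0.00 and -0.09 over all genes. Leaving out 1 library, the member median ran from -0.11 to -0.07 in line 1, from -0.23 (without DOX replicate 1) to -0.08 (without control replicate 1) in line 2, from -0.31 to -0.18 in TRIM24-KO, and from -0.25 (without control replicate 2) to -0.0055 (without DOX replicate 2) in TRIM33-KO. With median-of-ratios scaling the split became 3 up and 9 down in WT pLV2 line 2 and 7 up and 11 down in TRIM33-KO. Over all genes that scaling moved the calls in these 2 lines from 2305 up and 2534 down to 2619 and 1774, and from 2978 and 3627 to 3499 and 2676.

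**Figure D1:**
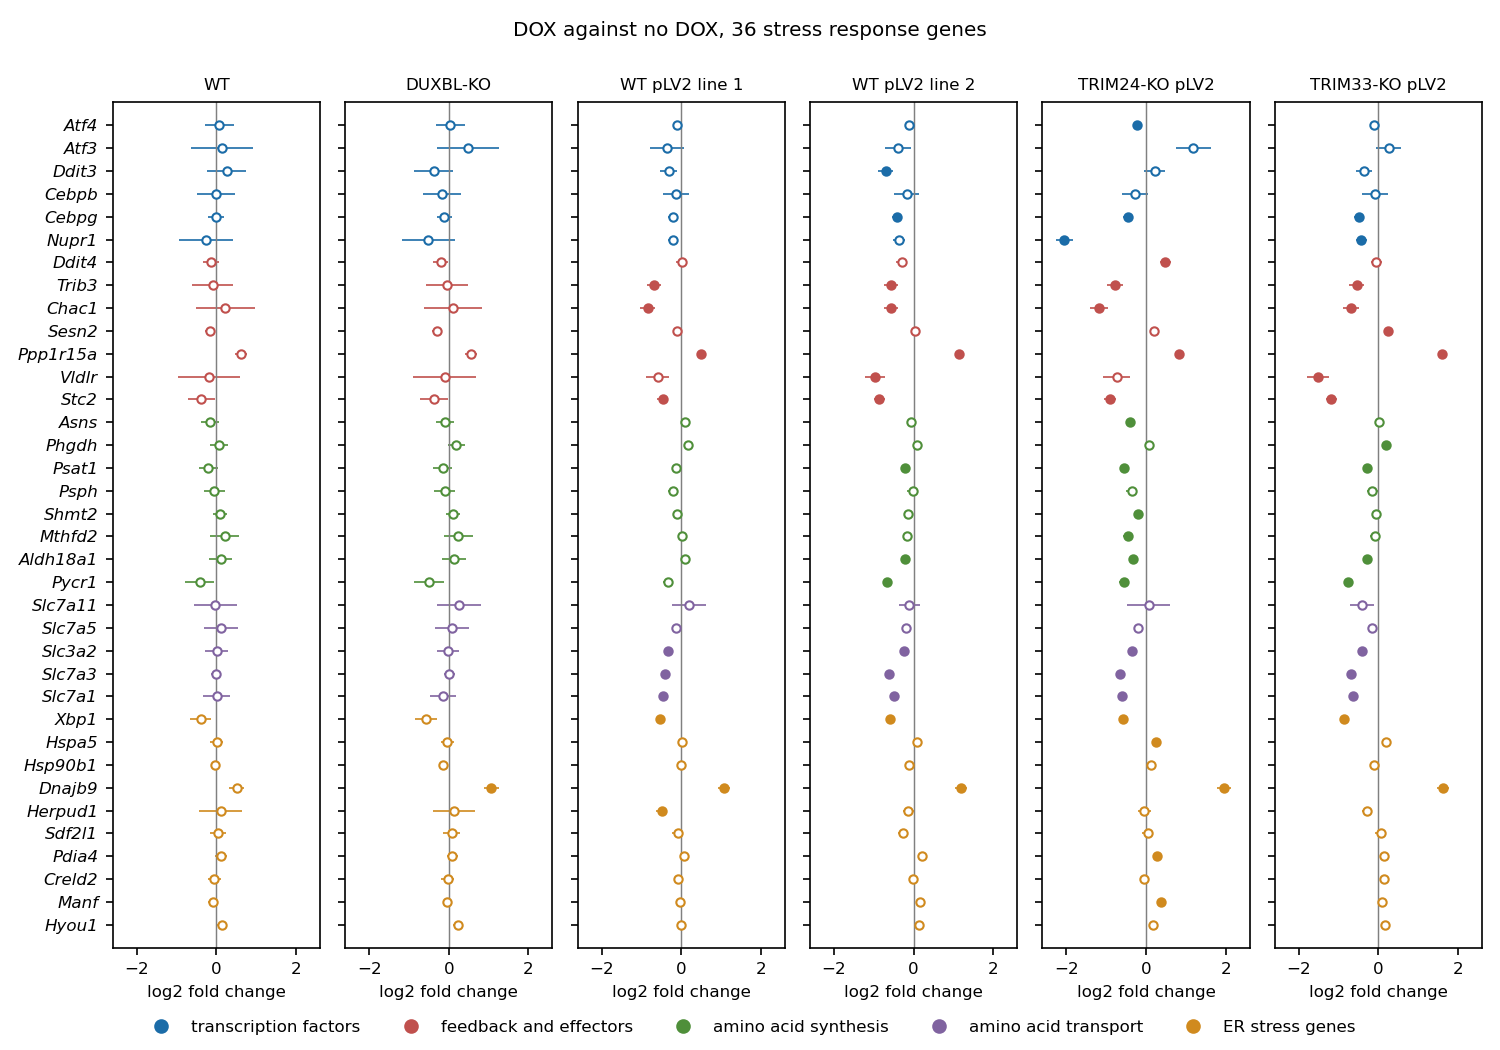
Log2 fold change with DOX (horizontal axis; bars are 1 SE) of the 36 members in each of the 6 lines, coloured by role; filled points passed an adjusted p of 0.05. Dnajb9 and Ppp1r15a stand to the right of 0 in every panel, most called genes of the other roles stand to the left, and Nupr1 stands far to the left in TRIM24-KO (-2.05).

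Dnajb9, on chromosome 12 (chr12:44205559-44210326, GRCm38, minus strand), encodes ERdj4, a co-chaperone that delivers misfolded proteins of the ER to BiP and is a known target of XBP1. In WT pLV2 line 1 it read 12 and 14.5 CPM without DOX and 26.3 and 29.8 CPM with DOX. In line 2 it read 10.3 and 12.3, then 29.1 and 22.3 CPM. The knockouts read 7.28 and 7.09, then 24.9 and 31.4 CPM in TRIM24-KO, and 10.6 and 11.3, then 36.8 and 31.2 CPM in TRIM33-KO. Every library with DOX lay above every library without DOX, across all 4 lines. The log2 changes were 1.08 ± 0.15 (SE, adjusted p = 6.74e-05), 1.19 ± 0.15 (1.64e-05), 1.96 ± 0.17 (1.05e-07) and 1.63 ± 0.15 (2.39e-07), or 2.12-, 2.28-, 3.88- and 3.1-fold. The difference between TRIM24-KO and the WT lines in this rise, 0.82 ± 0.20, did not pass the test (adjusted p = 0.111).

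Of the 10 ER genes, Dnajb9 was the only one called higher in line 1, line 2 and TRIM33-KO, while 4 were higher in TRIM24-KO. Hspa5 read 311 and 321 CPM without DOX and 319 and 326 with DOX in line 1, and 279 and 316, then 318 and 318 in line 2. In TRIM24-KO it read 217 and 225, then 260 and 264 CPM, a log2 change of 0.25 ± 0.07 (adjusted p = 0.0301). In TRIM33-KO it read 287 and 258, then 324 and 293 CPM, and the change of 0.18 ± 0.07 missed the threshold (adjusted p = 0.069). The groups with and without DOX did not overlap in TRIM24-KO, TRIM33-KO or line 2 but did in line 1. Hsp90b1, Hyou1 (a further large chaperone), Sdf2l1 and Creld2 were called in none of the 4 lines. In TRIM24-KO the disulfide isomerase Pdia4 also rose (136 and 138, then 164 and 168 CPM) and so did Manf, a secreted ER stress factor (42 and 43.4, then 50.2 and 60.6 CPM). Manf overlaps Rbm15b on the same strand and Dcaf1 on the other, among 4 overlapping genes.

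Xbp1, the transcription factor of the IRE1 branch, fell in all 4 lines. It read 44.2 and 46.8, then 31.1 and 31.6 CPM in line 1, and 52.7 and 52.1, then 34.4 and 35.2 CPM in line 2. In TRIM24-KO the values were 39.8 and 45.8, then 26.9 and 30.9 CPM, and in TRIM33-KO 47.5 and 48.3, then 26 and 26.3 CPM. All 8 libraries with DOX lay below all 8 without. The log2 changes ran from -0.54 ± 0.09 (line 1, adjusted p = 2.44e-04) to -0.87 ± 0.09 (TRIM33-KO, 6.33e-07). Herpud1, which acts in the degradation of ER proteins, read 15 and 15.9, then 11.7 and 10.2 CPM in line 1 (log2 change -0.49 ± 0.14, adjusted p = 0.022). It was not called in line 2 (20.1 and 16.1, then 18.6 and 14.6 CPM), in TRIM24-KO (8.3 and 8.83, then 8.21 and 8.4) or in TRIM33-KO (18.4 and 19.1, then 15.7 and 15). The groups overlapped in line 2 and TRIM24-KO only.

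Among the feedback genes, Ppp1r15a on chromosome 7 (chr7:45522916-45526268, GRCm38, minus strand) encodes GADD34, which brings a phosphatase to eIF2 and so ends the response. It read 25.6 and 24.5, then 33.7 and 37.5 CPM in line 1, and 17.5 and 16.5, then 40.1 and 34.4 CPM in line 2. In TRIM24-KO it read 22.7 and 21.8, then 38 and 42 CPM, and in TRIM33-KO 18.3 and 17.6, then 53.5 and 55.9 CPM. All libraries with DOX lay above all without. The log2 changes were 0.51 ± 0.10 (adjusted p = 0.00134), 1.13 ± 0.10 (1.12e-07), 0.84 ± 0.10 (6.05e-06) and 1.61 ± 0.10 (5.93e-10). The rise in TRIM33-KO exceeded that of the WT lines by 0.79 ± 0.12 (adjusted p = 0.0041), the only member called in that comparison, where 0.575% of all genes were. The count became 2 without the filter on low counts, where 0.971% of all genes were called. Set against line 2 alone the difference was 0.48 (adjusted p = 0.901) in a comparison where 0 of 18079 genes were called, and against line 1 alone 1.10 (4.38e-04). The summed 2-cell markers after DOX differed between these lines as well (928 to 1148 CPM in line 1, 2745 to 3788 in line 2, 4840 to 5371 in TRIM33-KO), and their part in the result was not tested. Ppp1r15a overlaps Tulp2 on the other strand.

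Of the 7 feedback and effector genes, 3 fell in line 1, 4 in line 2, 3 in TRIM24-KO and 4 in TRIM33-KO. Trib3, a pseudokinase that restrains ATF4 and CHOP, read 28.5 and 27.5, then 19.1 and 15.6 CPM in line 1, and 36.9 and 25.6, then 23.9 and 18.5 CPM in line 2. It read 24.8 and 24.6, then 16.6 and 11.6 CPM in TRIM24-KO, and 27.6 and 26, then 20.4 and 16 CPM in TRIM33-KO. No group with DOX overlapped its own control. The log2 changes were -0.69 ± 0.18, -0.57 ± 0.17, -0.78 ± 0.19 and -0.55 ± 0.18, with adjusted p of 0.0146, 0.0237, 0.00886 and 0.0263.

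Chac1, which breaks down glutathione, read 24.2 and 20.4, then 12.3 and 12.6 CPM in line 1, and 20.4 and 14.2, then 10.9 and 12.5 CPM in line 2. In TRIM24-KO it read 14.2 and 10.1, then 6.05 and 4.33 CPM, and in TRIM33-KO 15.7 and 15.6, then 10.4 and 9.01 CPM. Again each DOX group lay below its control. The log2 changes were -0.84 ± 0.18, -0.57 ± 0.18, -1.18 ± 0.23 and -0.68 ± 0.20, with adjusted p of 0.00367, 0.0287, 0.00115 and 0.0116. Stc2, a secreted glycoprotein induced by ER stress, fell by 0.47 in line 1, 0.86 in line 2, 0.91 in TRIM24-KO and 1.19 in TRIM33-KO on the log2 scale. Vldlr fell in line 2 (8.74 and 7, then 3.21 and 4.85 CPM) and in TRIM33-KO (7.22 and 7.21, then 1.96 and 3.15 CPM), by 0.97 and 1.52. Ddit4, an inhibitor of mTORC1, was called in TRIM24-KO, where it rose (65 and 57.6, then 92.1 and 78.9 CPM, log2 change 0.49 ± 0.14, adjusted p = 0.0211). It stood at 0.01 in line 1 and -0.30 in line 2, neither called, and the difference between TRIM24-KO and the WT lines, 0.63, was not called either (adjusted p = 0.158). Sesn2, a leucine sensor upstream of mTORC1, rose in TRIM33-KO by 0.24 ± 0.07 (adjusted p = 0.0114).

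**Figure D2:**
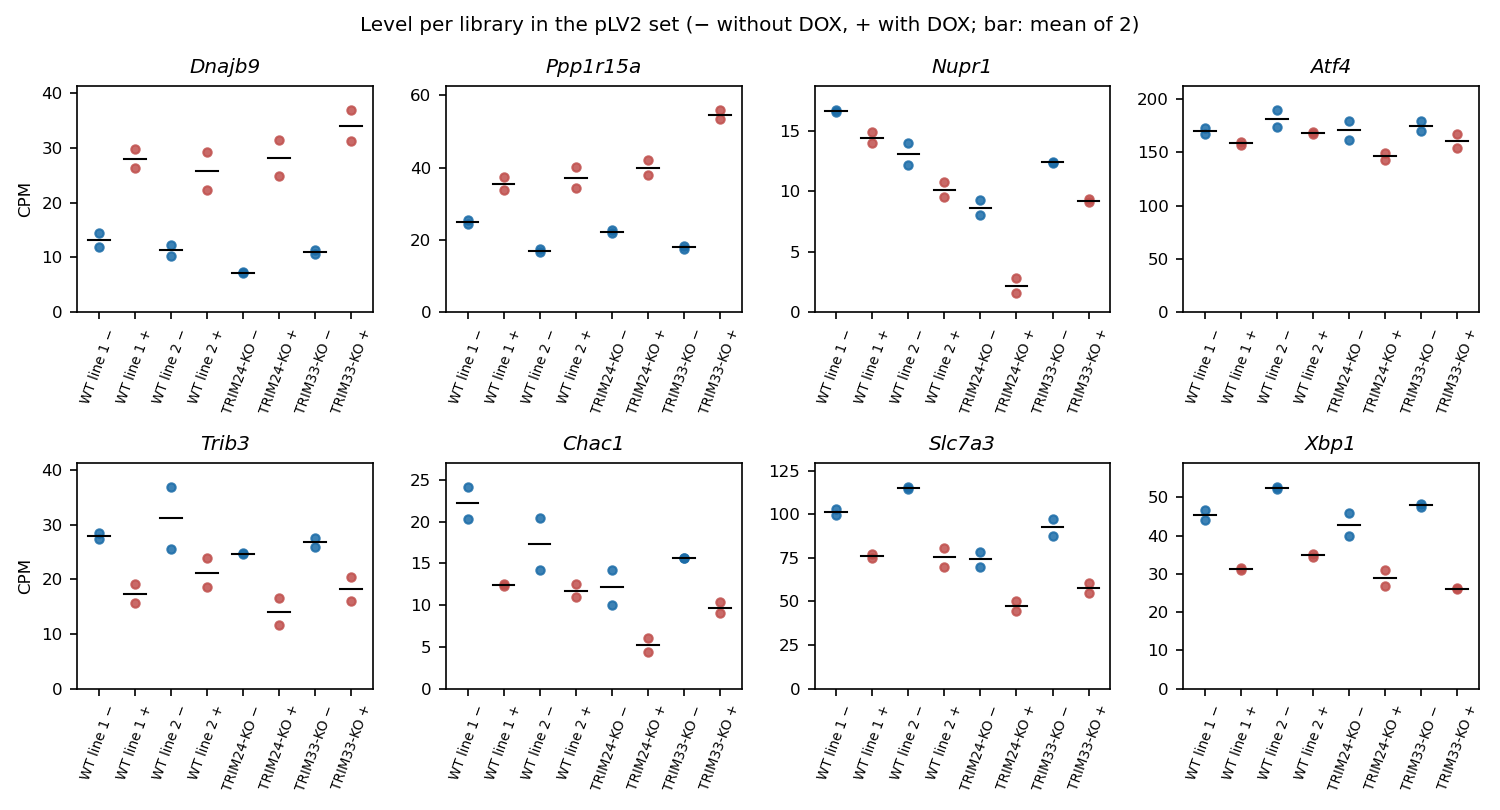
CPM (vertical axis, from 0) of 8 members in each of the 16 pLV2 libraries; blue points are libraries without DOX, red points with DOX, and bars are means of 2. Dnajb9 and Ppp1r15a rise with DOX in every line, Trib3, Chac1, Slc7a3 and Xbp1 fall, Atf4 stays between 143 and 190 CPM, and Nupr1 reaches 1.58 and 2.8 CPM in TRIM24-KO with DOX.

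Of the 6 transcription factors, 0 fell in line 1, 2 in line 2, 3 in TRIM24-KO and 2 in TRIM33-KO, and no factor rose. Atf4 itself read 167 and 173, then 157 and 160 CPM in line 1, and 190 and 174, then 169 and 167 CPM in line 2. It read 179 and 162, then 150 and 143 CPM in TRIM24-KO, and 170 and 179, then 167 and 154 CPM in TRIM33-KO. The DOX libraries were the lower ones in each line, and the change passed the test in TRIM24-KO (-0.22 ± 0.07, adjusted p = 0.0375), with -0.10, -0.11 and -0.12 in the other lines. Cebpg, a dimer partner of ATF4, fell in line 2 (-0.43), TRIM24-KO (-0.46) and TRIM33-KO (-0.50).

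Ddit3 read 5.7 and 7.35, then 5.33 and 5.15 CPM in line 1, and 9.12 and 8.47, then 5.66 and 5.15 CPM in line 2. In TRIM24-KO it read 2.53 and 2.67, then 2.74 and 3.44 CPM, and in TRIM33-KO 8.01 and 7.02, then 7.12 and 4.34 CPM. It fell in line 2 (log2 change -0.70 ± 0.19, adjusted p = 0.0126), and was not called in the others, where the groups overlapped in TRIM33-KO. Ddit3 overlaps Mars on the other strand. Atf3, an early stress factor, ranged from 0.662 to 4.18 CPM over the set and was not called with DOX in any line.

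Nupr1, a small stress-induced chromatin protein and a known ATF4 target, lies on chromosome 7 (chr7:126623249-126630861, GRCm38, minus strand). It read 16.7 and 16.6, then 13.9 and 14.9 CPM in line 1, and 12.2 and 14, then 9.48 and 10.8 CPM in line 2. In TRIM33-KO the values were 12.3 and 12.4, then 9.08 and 9.34 CPM, and in TRIM24-KO 8 and 9.24, then 1.58 and 2.8 CPM. The 2 TRIM24-KO libraries with DOX were the lowest of the 16, and no DOX group overlapped its control. The log2 change was -2.05 ± 0.21 in TRIM24-KO (4.14-fold lower, adjusted p = 9.4e-07) and -0.43 ± 0.15 in TRIM33-KO (0.0328), with -0.20 and -0.37 in lines 1 and 2, neither called. The TRIM24-KO change differed from that of the WT lines by -1.76 ± 0.23 (adjusted p = 0.00211), the only member called in that comparison, where 0.437% of all genes were. The count became 2 with median-of-ratios scaling (0.249% of all genes) or without CT010467.1 (0.259%), 3 with DESeq2 (0.537%) and 6 without the filter on low counts (0.621%). It was also 2 without TRIM24-KO with DOX replicate 1 and 3 without control replicate 1 of line 2. Leaving out DOX replicate 1 of TRIM24-KO made the difference -1.41 and the adjusted p 0.0355, the highest under any alternative, and leaving out DOX replicate 2 made it -2.21.

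Of 5 transporter subunits, 3 fell in each pLV2 line, and they were the same 3 genes. Slc7a3, a cationic amino acid transporter prominent in embryonic stem cells, read 99.3 and 103, then 75 and 77.1 CPM in line 1, and 114 and 116, then 69.7 and 80.6 CPM in line 2. It read 70 and 78.4, then 50.1 and 44.4 CPM in TRIM24-KO, and 97.1 and 87.7, then 60.4 and 54.6 CPM in TRIM33-KO. No DOX group overlapped its control, and the log2 changes were -0.41, -0.61, -0.64 and -0.68. Slc7a1, the related arginine and lysine carrier, changed by -0.45, -0.49, -0.60 and -0.64. Slc3a2, the heavy chain shared by several transporters, changed by -0.32, -0.24, -0.36 and -0.41. Its light chains Slc7a5 (leucine uptake) and Slc7a11 (cystine uptake) were called in none of the 4 lines. Slc7a11 read 0.756 and 0.451, then 0.686 and 0.682 CPM in line 1, 3.15 and 2.52, then 2.98 and 2.31 in line 2, 0.421 and 0.349, then 0.332 and 0.509 in TRIM24-KO, and 2.24 and 2.07, then 1.42 and 1.85 in TRIM33-KO.

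Of the 8 enzymes, 3 were lower in line 2, 6 were lower in TRIM24-KO, and 3 were lower and 1 higher in TRIM33-KO. No enzyme passed the test in line 1, where Pycr1 (-0.34, adjusted p = 0.0504) came closest. Asns, asparagine synthetase, read 140 and 143, then 153 and 153 CPM in line 1 and 484 and 385, then 456 and 380 CPM in line 2, with no call. It read 450 and 435, then 464 and 425 CPM in TRIM33-KO, also with no call, and 176 and 174, then 130 and 136 CPM in TRIM24-KO. In TRIM24-KO it fell by 0.40 ± 0.10 on the log2 scale (adjusted p = 0.00948). Pycr1, which makes proline, fell in line 2 (-0.66), TRIM24-KO (-0.55) and TRIM33-KO (-0.76). Psat1, of serine synthesis, fell in the same 3 lines (-0.21, -0.56 and -0.29). Mthfd2, the mitochondrial folate enzyme, fell in TRIM24-KO (98.8 and 84.5, then 73.9 and 58 CPM; -0.46 ± 0.10, adjusted p = 0.00482). Phgdh, the entry enzyme of serine synthesis, rose in TRIM33-KO by 0.19 ± 0.07 (adjusted p = 0.0484).

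The calls differed in how far they depended on a single library or setting. Of the called members, 4 of 10 in line 1, 7 of 15 in line 2, 11 of 22 in TRIM24-KO and 9 of 17 in TRIM33-KO passed the test under every alternative that was run. Dnajb9, Ppp1r15a, Xbp1 and Slc7a1 did so in all 4 lines. Slc7a3 lost its call only in line 1, without control replicate 2 (-0.35), and Stc2 only in line 1, without any 1 of its libraries (-0.41 to -0.53). Slc3a2 lost it in line 1 (-0.26 to -0.29, without either control or DOX replicate 2) and in line 2, where it stood at -0.13 without control replicate 1 and at -0.19 without DOX replicate 2. Trib3 lost its call in all 4 lines without at least 1 library. These were either control or DOX replicate 2 in line 1 (-0.55 to -0.68), control replicate 1 (-0.24) or DOX replicate 2 (-0.39) in line 2, DOX replicate 2 in TRIM24-KO (-0.57), and either control or DOX replicate 2 in TRIM33-KO (-0.33 to -0.58). Chac1 lost its call in line 1 without control replicate 1 (-0.67), in line 2 without control replicate 1 (-0.25) or DOX replicate 1 (-0.48), and in TRIM33-KO without DOX replicate 2 (-0.52).

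The calls made in only some of the lines were examined in the same way. In line 1, Herpud1 lost its call without either control or DOX replicate 2 (-0.40 to -0.49). In line 2 the calls lost were those of Vldlr without control replicate 1 (-0.76) or DOX replicate 1 (-0.70), Ddit3 without control replicate 1 (-0.62) or DOX replicate 2 (-0.64), and Cebpg without control replicate 2 (-0.36) or DOX replicate 1 (-0.39). The small changes of Psat1 (-0.13) and of the proline enzyme Aldh18a1 (-0.10) were lost there too, both without control replicate 1 and without others. In TRIM24-KO, Hspa5 (0.22 to 0.24) and Pdia4 (0.25 to 0.27) lost their calls without any 1 of the 4 libraries. Manf lost its call there without either control or DOX replicate 2 (0.24 to 0.36), so of the 4 ER genes called higher in TRIM24-KO, Dnajb9 alone passed throughout.

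Ddit4 in TRIM24-KO lost its call without control replicate 2 (0.37) or DOX replicate 1 (0.35). Atf4, Mthfd2 and Cebpg lost theirs in that line without control replicate 1 (-0.15, -0.35 and -0.41) or DOX replicate 2 (-0.18, -0.31 and -0.36), Asns without control replicate 1 (-0.39), Shmt2 without either control or DOX replicate 2 (-0.14 to -0.24), and Pycr1 without control replicate 2 (-0.41) or DOX replicate 1 (-0.43). The fall of Nupr1 in TRIM33-KO lost its call without any 1 of the 4 libraries (-0.38 to -0.42), with DESeq2 (-0.36, adjusted p = 0.177), with median-of-ratios scaling (-0.36) and with only the compared groups (-0.33), and its fall in TRIM24-KO kept it throughout. Also in TRIM33-KO, calls were lost by Cebpg without control replicate 1 (-0.36) or DOX replicate 2 (-0.40), Psat1 without DOX replicate 2 (-0.16), Aldh18a1 without control replicate 1 (-0.21) or DOX replicate 1 (-0.26), Sesn2 without control replicate 1 (0.20) and Phgdh without control replicate 2 (0.16) or DOX replicate 1 (0.12). A lone remaining library is assumed to vary like the other groups. Leaving out 1 library gave 5 to 10 called members in line 1, 8 to 15 in line 2, 14 to 19 in TRIM24-KO and 13 to 15 in TRIM33-KO, the lowest being without control replicate 1 of that line each time.

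In the plain set, DOX moved few members past the threshold. In WT, 0 of 36 were called by edgeR, where 2.93% of all genes were. An unadjusted p under 0.05 was reached by 2 members and by 1954 of 18060 genes, while DESeq2 called 1 member and 4.21% of all genes. The calls over all genes in WT fell from 529 to 95 without control replicate 1, to 2 without control replicate 2 and to 1 with only the compared groups fitted. In DUXBL-KO the only call was Dnajb9, where 4.91% of all genes were called. Dnajb9 read 10.2 and 9.85, then 22.8 and 19.4 CPM in DUXBL-KO and 12.5 and 11.3, then 19.7 and 14.2 CPM in WT. The DOX libraries were higher in both lines without overlap. The log2 change was 1.07 ± 0.19 in DUXBL-KO (adjusted p = 0.0205) and 0.51 ± 0.19 in WT (0.363), and the difference between them, 0.56 ± 0.27, was not called (adjusted p = 1). The DUXBL-KO call was lost without any 1 of its 4 libraries (adjusted p from 0.0539 to 0.132, log2 change 0.94 to 1.16). Ppp1r15a read 18.9 and 24.8, then 36.2 and 31.3 CPM in WT and 23 and 21.6, then 33.6 and 31.8 CPM in DUXBL-KO, again without overlap. Its changes of 0.62 ± 0.16 (adjusted p = 0.112) and 0.56 ± 0.16 (0.124) did not pass.

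The replicates of the plain WT cells stood apart in these genes. Without DOX, 16 of 36 members were at least 1.5 times higher in replicate 2 than in replicate 1 and 1 was higher in replicate 1, where 5.18% and 5.32% of all genes were. With DOX it was 19 against 0, where 5.27% and 7.84% of all genes were. Atf4 read 141 and 247 CPM without DOX and 142 and 266 CPM with DOX. Trib3 read 23.7 and 50.4, then 18.1 and 51.3 CPM, and Chac1 7.62 and 28, then 7.51 and 34.3 CPM. Replicate 2 was thus the higher library for these genes with and without DOX. Nupr1 (6.14 and 13.7, then 2.58 and 14 CPM), Ddit3 (3.26 and 7.6, then 3.85 and 9.2), Herpud1 (10.6 and 22.6, then 10.2 and 25.6) and Asns (292 and 397, then 257 and 357) showed the same order. Slc7a11 read 1.48 and 2.62, then 1.14 and 2.9 CPM.

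Of the 10 ER genes, Herpud1 was the only one at least 1.5 times higher in replicate 2, with and without DOX, and the median log2 ratio of replicate 2 to replicate 1 over the 10 was -0.14 without DOX and -0.36 with DOX. Hspa5 read 467 and 404, then 507 and 368 CPM, and Xbp1 read 81.7 and 52.5, then 61.2 and 40.9 CPM, with replicate 1 the higher for both. In DUXBL-KO, 2 members were at least 1.5 times higher in replicate 2 and 1 in replicate 1 without DOX, where 7.66% and 6.25% of all genes were. With DOX it was 4 and 0, where 6.17% and 7.49% of all genes were. Atf4 read 187 and 267, then 204 and 261 CPM, Trib3 29.7 and 43, then 29.2 and 41.4 CPM, and Chac1 17 and 24.1, then 20.5 and 23.5 CPM in that line. In the pLV2 groups at most 1 member reached such a gap in either direction. The median DOX change of the 36 members in plain WT was 0.00, and it ran from -0.34 to 0.33 when 1 library was left out.

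**Figure D3:**
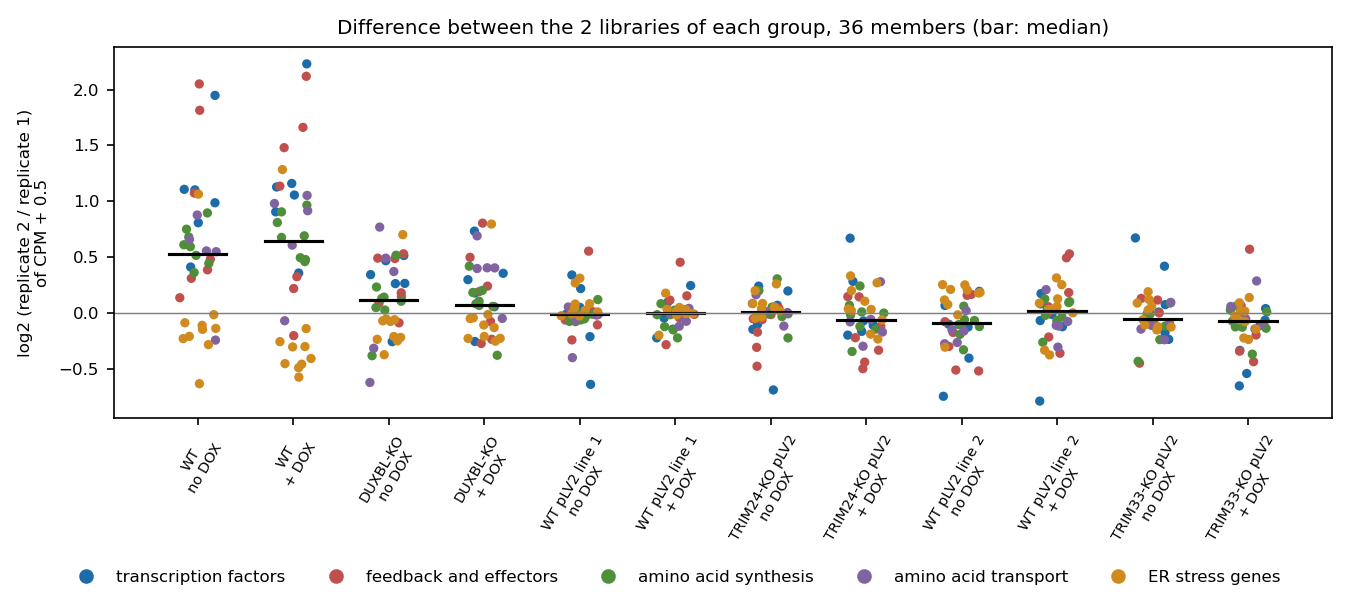
Log2 ratio of replicate 2 to replicate 1 (vertical axis, on CPM + 0.5) of each of the 36 members in the 12 groups, coloured by role; bars are medians. The medians of the plain WT groups stand at 0.53 and 0.64, with several ER genes below 0, while the pLV2 medians lie near 0.

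Other genes of the pathways were counted in the same fits. Their lists were written together with the member list, with earlier results of these data known. Of 19 further ATF4 targets, 18 were tested with DOX in the pLV2 lines. Between 38.9% and 61.1% of them were lower, where 4.94% to 20.1% of all genes were. In line 1, 7 fell and 1 rose, in line 2 11 fell and 2 rose, in TRIM24-KO 9 fell and 1 rose, and in TRIM33-KO 11 fell and 4 rose. Gdf15, a stress cytokine, changed by -0.76, -0.88, -1.09 and -0.97 (log2) in that order. The glycine carrier Slc6a9 changed by -0.50, -1.06 and -1.35 in the first 3 of these lines, while Atf5, an ATF4-related factor, rose by 1.09 in line 2. Of 12 cytoplasmic aminoacyl-tRNA synthetases, which charge tRNAs and are activated by ATF4 as a group, 2, 4, 7 and 4 fell (16.7%, 33.3%, 58.3% and 33.3%). Iars, which charges isoleucine, was the single one that rose in each line, by 0.65, 1.02, 0.92 and 1.40, and by 0.81 in DUXBL-KO.

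Of 18 genes for eIF2, its kinases, its exchange factor and the ER sensors, 1 was lower in line 1 (5.56%), and in the other 3 lines 3, 2 and 3 were lower (16.7%, 11.1% and 16.7%) and 1, 2 and 2 higher. Of all genes, 6.24% were lower in line 1 and 14%, 4.94% and 20.1% in the others. Ppp1r15b, the constitutive paralogue of Ppp1r15a, which brings the phosphatase to eIF2 in unstressed cells, changed by -0.31, -0.36, -0.34 and -0.46, opposite to Ppp1r15a in each line. Eif2ak2, the RNA-sensing kinase PKR, fell in line 2 (-0.36), TRIM24-KO (-0.50) and TRIM33-KO (-0.58). Of 18 further genes of ER folding and degradation, 1, 5, 5 and 7 rose (5.56%, 27.8%, 27.8% and 38.9%, where 10%, 12.7%, 11.5% and 16.5% of all genes did) and 0 fell in the 4 lines. The changes were small, such as 0.30 for the lectin chaperone Calr in line 2 and 0.35 for the isomerase P4hb in TRIM33-KO. In the plain set, 0 genes of these 4 lists were called in WT with DOX and Iars alone in DUXBL-KO.

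Without DOX, the pLV2 lines differed from each other in many of the members. The comparisons of TRIM24-KO, TRIM33-KO and the WT lines share control libraries, so each is given by its own values. WT pLV2 line 2 against line 1 gave 16 called members (10 higher, 6 lower), where 38.3% of all genes were called (18.9% higher, 19.3% lower). TRIM24-KO against both WT lines gave 26 (4 higher, 22 lower), where 43.4% of all genes were called (20.9% higher, 22.5% lower). TRIM33-KO against both WT lines gave 11 (5 higher, 6 lower), where 23.9% of all genes were called (12.8% higher, 11.1% lower). The member medians were 0.14, -0.32 and -0.02, beside 0.00, -0.02 and 0.00 over all genes.

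Of the 16 members called between the WT lines, Slc7a11, Asns and Stc2 differed most. Slc7a11 read 3.15 and 2.52 CPM in line 2 against 0.756 and 0.451 in line 1, a log2 difference of 2.23 ± 0.32 (4.7-fold, adjusted p = 4.46e-05). Asns read 484 and 385 CPM against 140 and 143, a difference of 1.62 ± 0.10 (3.07-fold, adjusted p = 5.23e-09). Stc2 read 47.8 and 42.2 CPM against 20.5 and 20.1 (1.15 ± 0.13, adjusted p = 4.28e-06). None of these groups overlapped. TRIM33-KO held levels near those of line 2, with Asns at 450 and 435, Stc2 at 44.1 and 48.3 and Slc7a11 at 2.24 and 2.07 CPM. TRIM24-KO lay closer to line 1 than to line 2, with Asns at 176 and 174, Stc2 at 19.7 and 18.9 and Slc7a11 at 0.421 and 0.349 CPM.

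Vldlr (1.00), Atf3 (1.04), Psat1 (0.55), Slc7a5 (0.53) and Cebpg (0.47) were also higher in line 2 than in line 1, while Ppp1r15a (-0.56), Sesn2 (-0.49), Pdia4 (-0.39) and Nupr1 (-0.35) were lower. Of the 16 calls, 10 passed under every alternative. Shmt2 (-0.17 without line 1 replicate 2), Slc3a2 (0.18 without line 2 replicate 1) and Hsp90b1 (-0.07 without line 2 replicate 1) lost theirs without these or other libraries. Without 1 library, the calls of Nupr1 (-0.21 to -0.42, lost without any 1 of the 4), Atf3 (0.68 without line 1 replicate 2 and 0.80 without line 2 replicate 1) and Vldlr (0.76 without line 1 replicate 1) were lost too. The fibroblast markers without DOX summed to 34.4 to 42.4 CPM in line 2 and 32.3 to 32.4 in TRIM33-KO, against 17.7 to 17.8 in line 1 and 22.7 to 24.1 in TRIM24-KO, with 6, 6, 5 and 5 of 10 genes above 3 counts. Dcn and Postn were at 0 in all 4 groups. Among the 6 fibroblast markers tested, 4 were called higher in line 2 than in line 1 and 0 lower (median 1.28). These were Col1a2 (4.04), Fbn1 (1.52), Thy1 (1.48) and Col1a1 (1.08). Against both WT lines, 4 were higher and 0 lower in TRIM33-KO (median 0.45), and 1 was higher and 2 lower in TRIM24-KO (median -0.39). Of the 10 pluripotency markers, 3 were higher and 5 lower in line 2 than in line 1, from Dppa5a (-1.19) to Zfp42 (0.79). In TRIM24-KO against both WT lines 3 were higher and 5 lower, from Tfcp2l1 (-0.71) to Dppa5a (0.67), and in TRIM33-KO 2 were higher and 3 lower. Of the 8 markers of the 2-cell-like state, 3 were lower in line 2 than in line 1 (Zscan4c, Usp17la and Zscan4d, median of the list -2.27), with sums of 0.921 to 1.02 CPM in line 2 and 3.80 to 4.67 in line 1, and 0 of 8 were called in either knockout against both WT lines. The part of these marker lists in the differences was not tested.

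**Figure D4:**
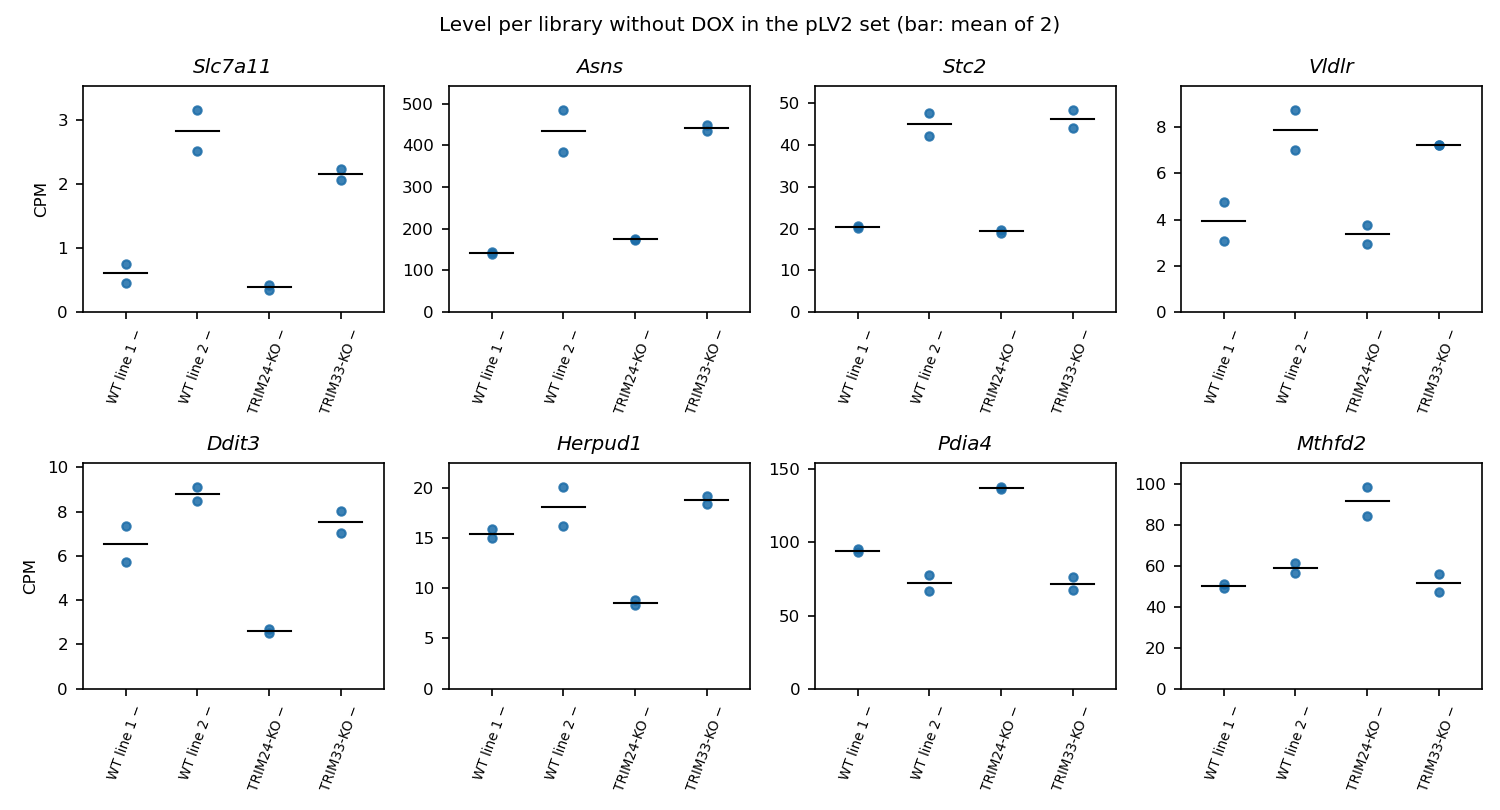
CPM (vertical axis, from 0) of 8 members in the 8 pLV2 libraries without DOX; points are libraries and bars means of 2. Slc7a11, Asns, Stc2 and Vldlr are high in WT line 2 and TRIM33-KO and low in WT line 1 and TRIM24-KO, while Ddit3 and Herpud1 are lowest and Pdia4 and Mthfd2 highest in TRIM24-KO.

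The libraries labelled TRIM24-KO had 26 called members before DOX, the highest count of these comparisons. Both libraries lay below all 4 WT libraries for 19 of 36 members, where 22.9% of all genes did, and above them for 3, where 21.3% did. Ddit3 read 2.53 and 2.67 CPM against 5.7, 7.35, 9.12 and 8.47 in the WT lines, a log2 difference of -1.54 ± 0.19 (2.91-fold lower, adjusted p = 6.04e-06). Herpud1 read 8.3 and 8.83 CPM against 15, 15.9, 20.1 and 16.1 (-0.97 ± 0.12, adjusted p = 7.57e-06). Dnajb9 read 7.28 and 7.09 CPM against 12, 14.5, 10.3 and 12.3 (-0.77 ± 0.15, adjusted p = 6.27e-04). Nupr1 read 8 and 9.24 CPM against 16.7, 16.6, 12.2 and 14 (-0.77 ± 0.12, adjusted p = 8.41e-05). These 4 genes were lower than in either WT line without overlap.

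Of the 26 members called, 12 passed under every alternative. By role, 8 of 10 ER genes were lower in TRIM24-KO and 1 was higher. Of the 8, Dnajb9, Herpud1, Hspa5, Hyou1 and Manf passed throughout. Creld2 lost its call without TRIM24-KO replicate 1 and against line 2 alone (-0.25 both times), and Hsp90b1 against line 2 alone (-0.12) and without any 1 library other than line 2 replicate 1 (-0.12 to -0.20). Hspa5 read 217 and 225 CPM against 311, 321, 279 and 316 (-0.47 ± 0.07, adjusted p = 1.81e-05), and Hyou1 146 and 154 CPM against 233, 232, 216 and 257 (-0.65 ± 0.07, adjusted p = 1.05e-06). The exception was Pdia4, at 136 and 138 CPM against 95.4, 93.6, 67.1 and 77.7 (0.73 ± 0.06, adjusted p = 9.37e-08). Of the 8 enzymes 5 were lower and 2 higher, and Mthfd2 was the higher one by size, at 98.8 and 84.5 CPM against 51.3, 49.4, 61.5 and 56.5 (0.75 ± 0.09, adjusted p = 2.7e-06). Xbp1 read 39.8 and 45.8 CPM against 44.2, 46.8, 52.7 and 52.1 with overlap (-0.19 ± 0.07, adjusted p = 0.041), a call lost under 10 alternatives, among them median-of-ratios scaling (-0.16) and leaving out TRIM24-KO replicate 1 (-0.09). Atf4 (179 and 162 CPM against 167, 173, 190 and 174) was not called, at -0.04 ± 0.06, and neither was Trib3, at 24.8 and 24.6 CPM against 28.5, 27.5, 36.9 and 25.6. Chac1 read 14.2 and 10.1 CPM against 24.2, 20.4, 20.4 and 14.2 (-0.70 ± 0.16, adjusted p = 0.00166), and lost its call without TRIM24-KO replicate 2 (-0.42, adjusted p = 0.0908).

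Some of these calls rest on the choice of WT line. Against line 1 alone, 17 members were called (4 higher, 13 lower), where 34% of all genes were, and against line 2 alone 28 (5 higher, 23 lower), where 48.1% of all genes were. Against line 1 alone, Slc7a11 (-0.63, adjusted p = 0.355), Atf3 (-0.83, 0.15), Vldlr (-0.23, 0.562) and Stc2 (-0.07, 0.729) were not called, whereas against both lines they stood at -1.75, -1.34, -0.73 and -0.65. Asns turned from -0.51 (adjusted p = 1.38e-04) against both lines to 0.30 (0.0235) against line 1 alone. Of the other ER folding and degradation genes, 8 of 18 were lower (44.4%) and 2 higher (11.1%) in TRIM24-KO, where Edem1 (1.17) and Dnajc3 (1.14), an inhibitor of PERK, were the higher ones. Among the 18 sensors and eIF2 genes, 4 were higher (22.2%) and 3 lower (16.7%), and Eif2ak3, which encodes PERK, was higher by 0.91. The further ATF4 targets had 7 higher and 7 lower of 18 (38.9% each). The aminoacyl-tRNA synthetases had 1 higher and 6 lower of 12 (8.33% and 50%). All these lists were set against both WT lines, where 20.9% of all genes were higher and 22.5% lower.

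Asns (0.83 ± 0.08, adjusted p = 2.53e-06), Slc7a11 (0.71 ± 0.25, 0.0463), Stc2 (0.61 ± 0.11, 6.1e-04) and Psat1 (0.29 ± 0.06, 0.00214) were called higher in TRIM33-KO than the mean of the WT lines, and the knockout libraries overlapped the WT range for all 4. Against line 2 alone, 0 of 36 members were called, where 1.52% of all genes were, and against line 1 alone 20 (11 higher, 9 lower), where 40.9% of all genes were. None of the 11 calls against both lines passed under every alternative. The call of Slc7a11 was lost without any of 4 libraries, namely line 1 replicate 2 (0.57), line 2 replicate 2 (0.66) and either TRIM33-KO replicate (0.68 and 0.79). The signs of Slc7a11 (-0.40) and Sesn2 (0.0042) turned against line 2 alone. Members for which the 2 TRIM33-KO libraries lay outside all 4 WT libraries numbered 5, where 20.5% of all genes did.

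DUXBL-KO against plain WT without DOX gave 0 called members of 36 by edgeR, where 0.0388% of all genes were called. An unadjusted p under 0.05 was reached by 1 member and by 1623 of 18060 genes. DESeq2 called 1 member, where 0.975% of all genes were called. That member was Pdia4 on chromosome 6 (chr6:47796141-47813430, GRCm38), at 103 and 88.7 CPM against 197 and 178 CPM without overlap (log2 difference -0.96 ± 0.14, adjusted p = 0.104). It stayed at 110 and 94.2 CPM with DOX against 224 and 182 CPM in WT. Asns read 387 and 297 CPM against 292 and 397, Slc7a11 1.67 and 0.91 against 1.48 and 2.62, and Ddit3 5.99 and 4.92 against 3.26 and 7.6, all with overlap. Hspa5 (533 and 448 CPM against 467 and 404), Herpud1 (14.6 and 24 against 10.6 and 22.6) and Nupr1 (10.3 and 12.5 against 6.14 and 13.7) overlapped too, while Xbp1 (49.6 and 38.1 against 81.7 and 52.5) did not.

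The DOX response of the members was also compared between lines directly. Between DUXBL-KO and WT, 0 members were called by edgeR, as were 0 of all 18060 genes. An unadjusted p under 0.05 was reached by 0 members and 98 genes, and DESeq2 called 0 members and 1 gene. Between the WT pLV2 lines, 0 were called, where 0.238% of all genes were, and 2 had an unadjusted p under 0.05, as did 1402 of 18079 genes. DESeq2 called 1, where 0.697% of all genes were called. For TRIM24-KO against the WT lines, where Nupr1 was called, 12 members had an unadjusted p under 0.05 by edgeR, as did 1548 genes. For TRIM33-KO, where Ppp1r15a was called, 7 members did, as did 1780 genes. The largest such difference in line 2 over line 1 was Ppp1r15a, at 0.62 ± 0.14 (adjusted p = 0.0902). With 2 libraries per group, a difference that misses the threshold here does not show that the lines responded alike.

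Reads from a gene and an overlapping neighbour cannot be assigned with certainty here, since whether the counting used strand is not given in the sources used here. Of the 36 members, 18 overlap another annotated gene, and Cebpg, Sesn2, Mthfd2, Aldh18a1, Slc7a11, Hsp90b1, Pdia4 and Manf overlap one on the same strand. Ddit3 has a second identifier for an upstream reading frame of 105 exon bases, which held 2 to 21 counts per library and was not added to the main one.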

How the data were processed

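RNA-seq was available for 24 libraries as tables of raw counts per gene, deposited by the authors as whole numbers. Per the submitters' processing notes, bcl2fastq 2.20.0, cutadapt 1.18, STAR 2.7.6a and the build mm10 were used. The kit was strand-specific with 75 bp paired reads, per the labels' protocols. The counting tool, its strand setting and how multi-mapping reads were handled are not given in the sources used here. The 36 members and all lists were chosen with earlier results of these data known, and members are named by fixed symbols or by passing the threshold. For each comparison the members named with values are 10 fixed genes and the called ones of largest change, and of each further list at most 4 called genes.

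Symbols and positions come from GENCODE M21 (GRCm38), and promoter windows from RefSeq (GRCm38.p6). Each set was fitted apart over all genes with edgeR 4.0.16 in R 4.3.3 (TMM, filterByExpr by group, glmQLFit and glmQLFTest, 2-sided), with Benjamini-Hochberg adjustment over all genes within each of 14 contrasts and a threshold of 0.05. CPM use TMM-scaled library sizes. The scripts were tested on simulated data. The alternatives were median-of-ratios (RLE) factors, no filter, DESeq2 1.42.0, a replicate block, a fit to only those groups being compared, no CT010467.1, each WT pLV2 line alone, and leaving out each library.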

Additional observations from a re-analysis of the deposited data

Results flagged for a closer look

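Nupr1 met the rule for effects that differ between lines by a direct test. Its log2 change with DOX in TRIM24-KO differed by -1.76 from that of the WT pLV2 lines (adjusted p = 0.00211, edgeR), with the TRIM24-KO libraries lower in both replicates. Ppp1r15a met the same rule, since its DOX rise in TRIM33-KO exceeded that of the WT pLV2 lines by 0.79 (adjusted p = 0.0041, edgeR). The second difference was 0.48 and was not called against WT pLV2 line 2 alone.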

How the results depend on the processing

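Counts of called members are given under each alternative that moved them by more than 1.5 times. The share of all genes called under the same setting follows in brackets. Without the filter on low counts, the count became 1 for DOX in WT (3.22%) and 2 for DOX in DUXBL-KO (4.47%). It became 2 for DUXBL-KO against WT (1.7%) and 7 for TRIM33-KO against WT pLV2 (12%). For the differences in DOX response of TRIM24-KO, TRIM33-KO and line 2 it became 6, 2 and 1 (0.621%, 0.971% and 0.685%). DESeq2 gave 1 for DOX in WT (4.21%), 1 for DUXBL-KO against WT (0.975%), 3 for the TRIM24-KO difference (0.537%) and 1 for the line 2 difference (0.697%). Both RLE factors (0.249%) and the fit without CT010467.1 (0.259%) gave 2 for the TRIM24-KO difference. With only the compared groups, DOX in line 2 gave 9 (16.5%). Against WT pLV2 line 1 alone, TRIM24-KO gave 17 (34%), TRIM33-KO gave 20 (40.9%), and the sign of Asns in TRIM24-KO turned (log2 difference 0.30). Against line 2 alone, TRIM33-KO gave 0, its difference in DOX response gave 0 (as did all 18079 genes), and the signs of Slc7a11 (-0.40) and Sesn2 (0.0042) turned.

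Leaving out 1 library gave 0 to 0 called members for DOX in WT, DOX in DUXBL-KO and DUXBL-KO against WT, 5 to 10 for line 1, 8 to 15 for line 2, 14 to 19 for TRIM24-KO and 13 to 15 for TRIM33-KO with DOX. Without DOX it gave 20 to 26 for TRIM24-KO, 5 to 13 for TRIM33-KO and 11 to 15 for line 2 against line 1, and 1 to 3, 1 to 2 and 0 to 1 for the differences of TRIM24-KO, TRIM33-KO and line 2. Of 1271 recomputed values of the 120 member calls, 1042 stayed on their side, 226 lost the call and 3 changed sign. The cause of these changes was not tested, apart from the fewer libraries where 1 was left out.

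With the replicate number as a block, the 120 member calls were kept, while DOX in DUXBL-KO and DUXBL-KO against WT gave 2 called members each (Dnajb9 with Xbp1, and Pdia4 with Xbp1). For DUXBL-KO against WT the block moved the calls over all genes from 7 to 440. The labels do not say that a number pairs libraries. The deviations of same-numbered libraries with and without DOX correlated at 0.50 in WT, 0.71 in DUXBL-KO, 0.03 in line 1, 0.20 in TRIM24-KO, 0.31 in line 2 and 0.10 in TRIM33-KO over 16420 genes. Low counts limit Slc7a11, Atf3 and Vldlr, which stayed under 11 CPM in all 24 libraries.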
